A study of Mus musculus with 6 samples.

Results

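Plasminogen activators, their cell-surface receptor and 2 related serpins were followed through single-cell RNA sequencing of Pdgfra+ lung fibroblasts (FBs). The genes are Serpine2, Serpinf1, Plat, Plau and Plaur, 5 of the 42625 gene symbols listed across the 6 count tables. They were chosen by symbol, with earlier results of these data known, and each table, of 30828 to 32285 genes, listed all 5.

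As background, plasminogen circulates as an inactive precursor and is cut to plasmin, a protease that dissolves fibrin and also degrades matrix proteins. Plat encodes tissue-type plasminogen activator and Plau encodes urokinase, the proteases that make this cut, and Plaur encodes the receptor that holds urokinase at the cell surface. Serpine2 encodes protease nexin-1, a secreted serpin that inhibits thrombin, urokinase and plasmin. Serpinf1 encodes pigment epithelium-derived factor, a serpin by fold that is not known to inhibit proteases and is best known as an anti-angiogenic and neurotrophic protein. Fibrin is deposited in the airspaces of injured lungs, and plasmin is the main protease that removes it.

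The study asked how Pdgfra+ FBs differ after bleomycin, a DNA-damaging drug that injures the lung and leads to fibrosis, and how such FBs act on alveolar epithelium in culture. All FBs came from Pdgfra-GFP mice, in which green fluorescent protein is made from the Pdgfra locus, and the study's methods give male mice of 10 to 14 weeks of age. Single-dose lungs were taken on day 14 after 1 oropharyngeal dose of PBS (50 ul) or of bleomycin, for which the protocol text states 2 U/kg and the sample's own label 4 U/kg. Repetitive-dose lungs were taken 2 weeks after the last of 3 weekly doses of PBS or of bleomycin, of which the last dose was 0.5 U/kg and those before it 1 U/kg each. Organoids were grown for 2 weeks in Matrigel from type 2 alveolar epithelial cells (AEC2s) of tamoxifen-treated SpcCreER, tomato+ donors, mixed with GFP+ FBs from donors given PBS ("normal") or 2 U/kg bleomycin ("fibrogenic") and harvested at day 14. Each of the 6 conditions was 1 library from 3 pooled mice, so the spread between mice was not measured, no test between conditions was possible and no p-value is given.

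Library totals ranged from 7201081 to 238618743 unique molecular identifiers (UMIs), and median UMIs per barcode from 2478 in the repetitive bleomycin library to 36841 in the normal organoids. Barcodes with at least 2000 UMIs were gated as FBs by collagen and other mesenchymal markers, which left 878 and 821 FBs in the single-dose PBS and bleomycin libraries, 5317 and 5449 in the repetitive ones, and 2095 and 3144 in the normal and fibrogenic organoids. In these FBs Pdgfra stood at 299 to 592 counts per 1000000 UMIs (CPM) in the lungs and at 71.9 and 77.0 CPM in the organoids, Col1a1 at 696 to 3171 CPM, and Ptprc, which marks leukocytes, at no more than 3.12 CPM. RNA of other cells was present, since Sftpc, an AEC2 transcript, stood at 57.2 to 80.0 CPM in lung FBs and at 659 and 666 CPM in organoid FBs. Free RNA and unremoved doublets were not told apart as its source. Any pair of libraries shared 0 to 30 barcodes.

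FBs were divided by marker level into classes that are ranges rather than cell types. LipoFBs, the lipid-storing alveolar FBs, made up 82.6% of FBs after PBS and 30.1% after single-dose bleomycin, and 80.3% and 34.6% in the repetitive experiment. MatrixFBs, the adventitial FBs, made up 13.6% and 21.2%, and 17.8% and 38.0%. Myofibroblasts (MyoFBs) and FBs with high Sfrp1, Hp and Eln that met no other class gate (Sfrp1 FBs) made up 9.14% and 22.5% of single-dose bleomycin FBs and 2.55% and 10.6% of repetitive bleomycin FBs, against at most 3 barcodes of either class in a PBS library. Their borders were not sharp, because the FBs within 20% of a class threshold numbered 41 to 123 per class in the single-dose bleomycin library and 163 to 1083 per class in the repetitive bleomycin library, cycling FBs aside. LipoFBs of the PBS and bleomycin libraries also differed, with medians per 10000 UMIs of 146 and 81.7 UMIs of the LipoFB set and 6.05 and 80.6 of the Sfrp1 set in the single-dose experiment, and of 123 and 84.6, and 4.74 and 47.6, in the repetitive one. The Sfrp1 gate, at 50 per 10000, came last, so Sfrp1 FBs leave out LipoFBs and other FBs that also reached that level. None of the 5 genes was used in any gate.

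The promoters of 3 of the genes are shown for orientation, taken from RefSeq on GRCm38.p6 and cut to the part of the 250 bases before the start that lies outside annotated exons. Serpine2 and Plaur are the members that were more than 2-fold higher in FBs after both bleomycin schedules, and Serpinf1 is the member with the widest gap between MatrixFBs and LipoFBs. Capitals mark matches, on either strand, to an AP-1 motif (TGANTCA), a GC box (GGGCGG) or a TATA box (TATAAA). The stretches are chr1:79858697-79858915 on the minus strand for Serpine2, chr7:24462233-24462482 on the plus strand for Plaur and chr11:75422702-75422873 on the minus strand for Serpinf1, each written 5′ to 3′.
Serpine2: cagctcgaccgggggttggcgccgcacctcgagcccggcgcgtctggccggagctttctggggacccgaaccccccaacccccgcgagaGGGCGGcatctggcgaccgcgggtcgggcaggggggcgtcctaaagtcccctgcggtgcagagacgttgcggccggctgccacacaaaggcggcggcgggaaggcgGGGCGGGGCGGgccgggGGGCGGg
Plaur: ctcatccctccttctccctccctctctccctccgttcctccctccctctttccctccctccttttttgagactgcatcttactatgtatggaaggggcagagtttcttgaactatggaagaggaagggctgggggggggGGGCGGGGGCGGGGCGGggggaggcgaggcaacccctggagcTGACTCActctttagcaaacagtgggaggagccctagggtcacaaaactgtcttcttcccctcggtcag
Serpinf1: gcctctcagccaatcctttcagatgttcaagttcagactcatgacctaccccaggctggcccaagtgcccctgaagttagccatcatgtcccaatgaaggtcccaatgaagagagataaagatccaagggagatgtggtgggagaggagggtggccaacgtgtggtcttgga

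The Serpine2 stretch held 4 GC boxes, 2 of which overlap, and 2 more lay in the 31 exonic bases not printed, 19 and 13 bases before the start. The Plaur stretch held 1 AP-1 match 69 bases before the start and 3 GC boxes, 2 of them overlapping. The Serpinf1 stretch held none of the 3 motifs, nor did the 78 exonic bases left out of it. Of 32851 mouse promoters of the same 250-base length, 6.75% held the AP-1 motif, 32.7% a GC box and 12.4% a TATA box. A match is a description of letters and not evidence of binding. No promoter is shown for Plat and Plau.

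On GRCm38 (GENCODE vM21) all 5 are protein-coding genes and none overlaps another annotated gene on either strand. Serpine2 lies at chr1:79794197-79861180 on the minus strand, so that its RefSeq promoter falls inside the longer GENCODE locus. Serpinf1 lies at chr11:75409769-75422701 (minus), Plat at chr8:22757727-22782844 (plus), Plau at chr14:20836660-20843385 (plus) and Plaur at chr7:24462484-24475968 (plus).

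Serpine2, the protease nexin, was higher in FBs of both bleomycin lungs. In the single-dose experiment it stood at 440 CPM after PBS (95% exact Poisson interval 423 to 457, from 2688 UMIs) and at 1301 CPM after bleomycin (1279 to 1323, 13452 UMIs). In the repetitive experiment it stood at 312 CPM after PBS (18430 UMIs) and at 753 CPM after bleomycin (42976 UMIs). Each bleomycin value lay above its own PBS value with no overlap of the intervals, which here and throughout cover counting error only. The ratios were 2.96-fold (2.84 to 3.09) and 2.41-fold (2.37 to 2.45).

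**Figure D1:**
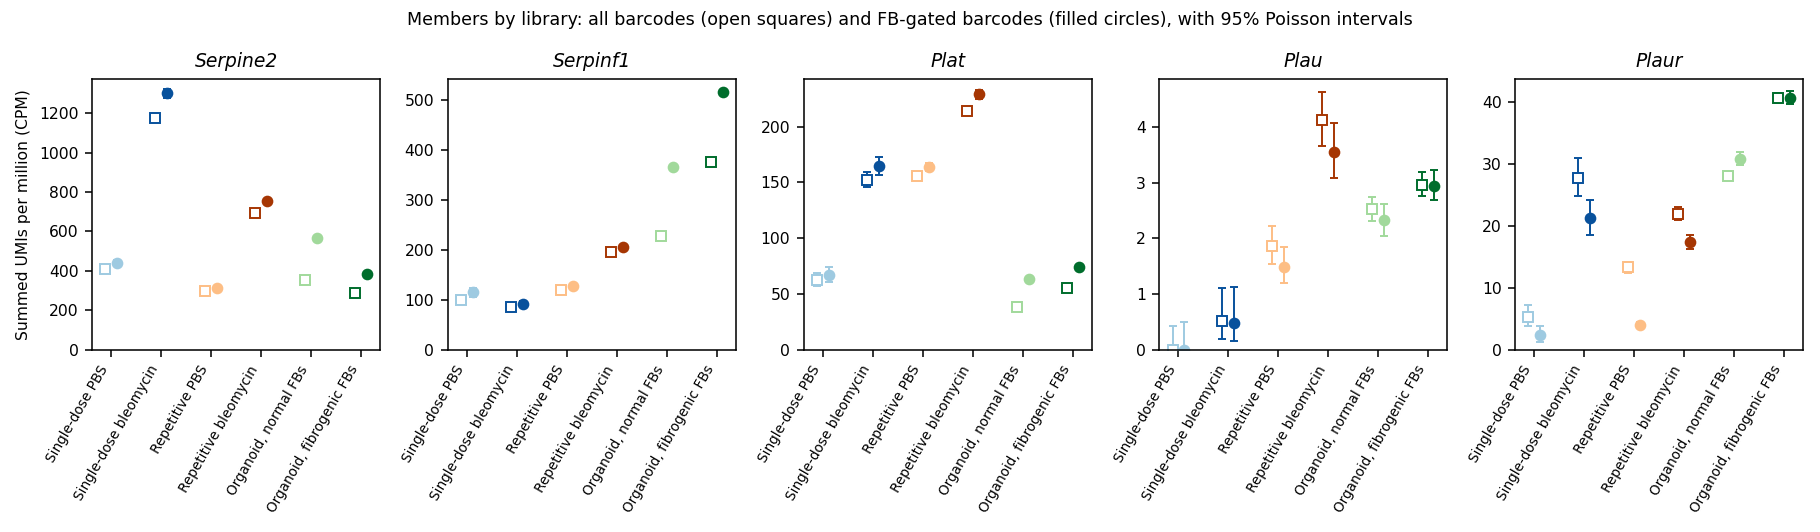
Level of each member in each library, in CPM on an axis that starts at 0 and differs between panels, over all barcodes (open squares) and FB-gated barcodes (filled circles), with lines for the exact 95% Poisson interval (counting error only). In FBs Serpine2 runs from 440 to 1301 CPM and from 312 to 753 CPM in the lungs but from 568 to 383 CPM in the organoids, while Plat and Plaur are higher in the second library of all 3 pairs.

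Within the lung FBs, Serpine2 levels spread widely across classes. In the single-dose bleomycin library it stood at 3498 CPM in MyoFBs, at 1300 CPM in Sfrp1 FBs, at 892 CPM in LipoFBs and at 279 CPM in MatrixFBs, and in the repetitive bleomycin library at 2764, 1031, 719 and 286 CPM in the same order. MyoFBs were thus the highest and MatrixFBs the lowest of the 4 classes in both, with no overlap of counting intervals. MyoFBs, with 13.8% of the FB UMIs of the single-dose bleomycin library, held 35.7% of all its Serpine2 UMIs, and with 4.64% of the FB UMIs of the repetitive bleomycin library they held 15.5%. Every MyoFB-gated barcode of either library, 75 and 139, had at least 1 Serpine2 UMI, unthinned. Their median depths were 17686 and 16843 UMIs, against 8087.5 and 5332 in MatrixFBs.

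The PBS values were lower within classes too. LipoFBs stood at 495 CPM after PBS in the single-dose experiment, against 892 after bleomycin (1.80-fold, 1.71 to 1.91), and at 357 against 719 CPM in the repetitive experiment (2.01-fold, 1.97 to 2.06). MatrixFBs stood at 113 against 279 CPM (2.46-fold, 1.96 to 3.11) and at 103 against 286 CPM (2.77-fold, 2.59 to 2.97). The bleomycin value was the higher in all 4 within-class comparisons, though LipoFBs of the paired libraries differed in their marker levels as given above. With the class shares held at those of the PBS library, an alternative added after the data were seen, the log2 ratio of Serpine2 (CPM + 1) was 0.90 rather than 1.56 in the single-dose FBs and 1.06 rather than 1.27 in the repetitive FBs.

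**Figure D2:**
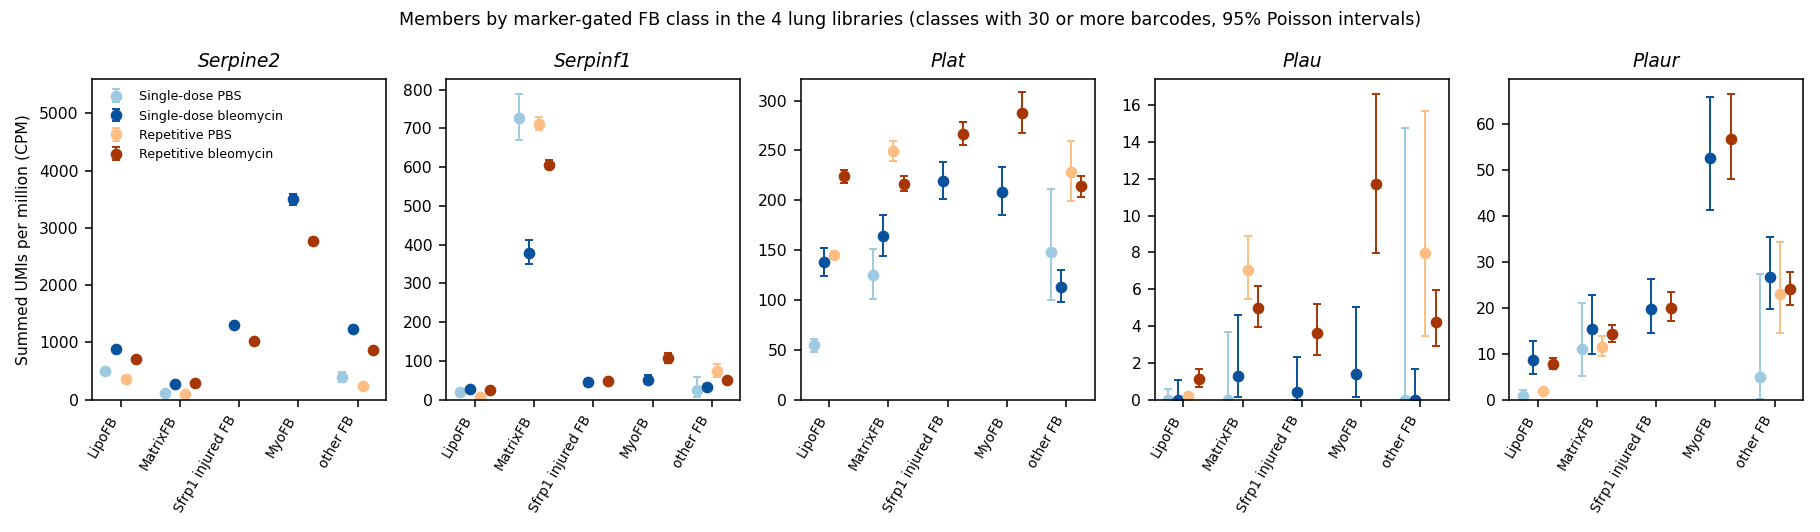
Level of each member in the lung FB classes, in CPM on an axis that starts at 0 and differs between panels, with a point per library for classes of at least 30 barcodes and lines for the exact 95% Poisson interval. In both bleomycin libraries Serpine2 is highest in MyoFBs (3498 and 2764 CPM), and in all 4 lung libraries Serpinf1 is highest in MatrixFBs (380 to 728 CPM).

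Thinned to 2000 UMIs per barcode, the share of FBs with a Serpine2 UMI was 54.0% after PBS and 69.2% after bleomycin in the single-dose libraries, and 41.8% and 57.8% in the repetitive libraries. Unthinned, these shares were 81.7% and 93.3%, and 81.6% and 78.2%, the last pair at median depths of 10618 and 8520 UMIs. T cells, which should lack the gene, gave 1 of 70 barcodes (1.43%, median 3836 UMIs) in the repetitive PBS library and 2 of 43 (4.65%, median 4562 UMIs) in the bleomycin library, far below the FB shares. Smooth muscle barcodes of the repetitive bleomycin library, 35 in number, stood at 977 CPM of Serpine2.

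Serpinf1, the non-inhibitory serpin, was concentrated in MatrixFBs. In the single-dose experiment MatrixFBs stood at 728 CPM after PBS (670 to 789) and at 380 CPM after bleomycin (350 to 412), while LipoFBs stood at 20.5 and 26.5 CPM. In the repetitive experiment MatrixFBs stood at 712 and 606 CPM and LipoFBs at 6.52 and 24.4 CPM. MatrixFBs exceeded LipoFBs of the same library 35.5-fold (28.8 to 44.2) and 14.3-fold (11.3 to 18.5) in the single-dose PBS and bleomycin libraries. The corresponding ratio was at least 97.4-fold in the repetitive PBS library, the lower end of its interval, and 24.9-fold (22.8 to 27.2) in the repetitive bleomycin library. The LipoFB level of the repetitive PBS library was no higher than that of its leukocytes (9.17 CPM, 11 UMIs), so it is read as background and ratios to it as lower bounds, while after bleomycin leukocytes stood at 7.27 CPM (13 UMIs). No background level is given for single-dose LipoFBs, so the part of free RNA in their 20.5 and 26.5 CPM was not tested. Of each library's Serpinf1 UMIs, MatrixFBs held 83.0%, 58.5%, 91.2% and 75.6% in the same order. Sfrp1 FBs stood at 44.7 and 49.1 CPM of Serpinf1, and MyoFBs at 51.1 and 108 CPM, in the single-dose and repetitive bleomycin libraries.

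The FB total of Serpinf1, summed over UMIs, was lower after bleomycin in the single-dose experiment and higher in the repetitive one. It stood at 114 CPM after PBS (106 to 123) and 90.3 CPM after bleomycin (84.6 to 96.3) in the single-dose experiment, a ratio of 0.790 (0.716 to 0.873). It stood at 126 and 205 CPM in the repetitive experiment, a ratio of 1.62 (1.58 to 1.67). In neither experiment did the bleomycin interval overlap the PBS interval. Within MatrixFBs the bleomycin value of Serpinf1 was lower in both, at 0.522 (0.465 to 0.586) and 0.852 (0.827 to 0.879) of the PBS value, and within single-dose LipoFBs the ratio was 1.29 (0.949 to 1.76, an interval that includes no difference). Beside these values, MatrixFBs held 13.3% of FB UMIs after PBS and 15.1% after bleomycin in the single-dose experiment, and 16.8% and 29.1% in the repetitive one. With each barcode weighted equally the log2 ratio of Serpinf1 was -0.05 in the single-dose FBs, near no difference, and 0.80 in the repetitive FBs. With class shares held at those of PBS, the log2 ratio of Serpinf1 was -0.63 in the single-dose FBs and -0.04 in the repetitive FBs, against -0.34 and 0.69 as sampled. The thinned share of single-dose FBs with a Serpinf1 UMI went from 11.3% to 16.2%, against the CPM, and no order is read from it.

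Plat, the tissue-type activator, was higher after bleomycin in both lung experiments, by 2.46-fold (2.20 to 2.74) after a single dose and by 1.40-fold (1.36 to 1.44) after repetitive doses. The FB levels behind these ratios were 66.9 CPM (60.6 to 73.7) and 164 CPM (157 to 172), and 164 and 229 CPM. In LipoFBs Plat stood at 54.5 CPM after PBS and 138 CPM after single-dose bleomycin (2.52-fold, 2.16 to 2.95), and at 145 and 224 CPM in the repetitive experiment (1.55-fold, 1.49 to 1.61). In MatrixFBs the single-dose values were 125 and 164 CPM (1.31-fold, 1.04 to 1.67), whereas the repetitive values were 249 and 217 CPM, a ratio of 0.871 (0.827 to 0.917). MatrixFBs therefore exceeded LipoFBs in Plat after PBS, by 2.28-fold (1.80 to 2.88) and 1.72-fold (1.64 to 1.80). After bleomycin the gap was 1.19-fold (1.01 to 1.40) and 0.968-fold (0.927 to 1.01).

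Classes differed less in Plat than in the other members. In the single-dose bleomycin library Sfrp1 FBs stood at 219 CPM (201 to 239) and MyoFBs at 208 CPM (185 to 233), which overlap, and in the repetitive bleomycin library at 267 CPM (255 to 278) and 288 CPM (267 to 309), which also overlap. The thinned share of FBs with a Plat UMI was 11.3% and 26.9% in the single-dose libraries and 18.0% and 29.8% in the repetitive libraries. T cells gave 1 Plat UMI in 70 barcodes and 0 in 43, and a count of 0 there allows up to 12.0 CPM. Endothelial cells, which release tissue-type activator in vessels, stood at 52.7 CPM (31.7 to 82.3, 46 barcodes) and 33.7 CPM (12.4 to 73.3, 22 barcodes) in the repetitive libraries.

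Plau, the urokinase gene, was close to the detection limit in lung FBs. Single-dose FBs gave 0 UMIs after PBS, which allows up to 0.491 CPM, and 5 UMIs after bleomycin (0.484 CPM, 0.157 to 1.13). Repetitive FBs gave 88 UMIs after PBS (1.49 CPM, 1.20 to 1.84) and 203 after bleomycin (3.56 CPM, 3.08 to 4.08). The repetitive ratio was 2.39-fold (1.85 to 3.10), and none is given for the single dose, where so few UMIs were found. Plau UMIs were found in 1.09% and 2.17% of repetitive FBs, while T cells gave 0 UMIs in both libraries. That count allows up to 8.10 and 12.0 CPM in T cells, which were too few to set a closer limit on background.

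The few Plau UMIs were not spread evenly. In the repetitive PBS library MatrixFBs stood at 7.06 CPM (70 UMIs) and LipoFBs at 0.208 CPM (10 UMIs), a gap of at least 17.4-fold, the lower end of its interval. In the bleomycin library MatrixFBs stood at 4.99 CPM (83 UMIs), LipoFBs at 1.11 CPM (24 UMIs) and MyoFBs at 11.7 CPM (31 UMIs, 7.95 to 16.6). MatrixFBs were thus slightly lower in Plau after bleomycin (0.708, 0.509 to 0.987), and MyoFBs were the highest of these 3 classes. The LipoFB level puts a closer limit on the background of each library than T cells did, and the MatrixFB levels lay above it. Among the few leukocytes left by the sort, macrophages and monocytes stood at 10.3 CPM of Plau (4 UMIs) after PBS and at 27.0 CPM after bleomycin (17.5 to 39.8, 25 UMIs, of which 9 came from 1 barcode).

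Plaur, the urokinase receptor, had the largest ratio in lung FBs under both schedules among the members with at least 50 UMIs. In single-dose FBs it stood at 2.29 CPM after PBS (1.25 to 3.84, 14 UMIs) and at 21.3 CPM after bleomycin (18.6 to 24.3, 220 UMIs), a ratio of 9.29 (5.42 to 17.3). In repetitive FBs it stood at 3.90 CPM (3.41 to 4.43, 230 UMIs) and at 17.4 CPM (16.3 to 18.5, 994 UMIs), a ratio of 4.47 (3.87 to 5.18). The bleomycin intervals lay well above the PBS intervals in both. With class shares held, the log2 ratio of Plaur was 1.76 rather than 2.76 after a single dose and 1.08 rather than 1.91 after repetitive doses, and that of Plau after repetitive doses was 0.18 rather than 0.87. With a pseudocount of 10 CPM Plaur gave 1.35 and 0.98, below Serpine2 at 1.54 and 1.24. MyoFBs were again the highest of the 4 classes, at 52.5 CPM (41.3 to 65.9) and 56.6 CPM (47.9 to 66.4). Sfrp1 FBs stood at 19.7 and 19.995 CPM, MatrixFBs at 15.3 and 14.2 CPM, and LipoFBs at 8.71 and 7.85 CPM of Plaur.

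After PBS, Plaur was low in LipoFBs, with 4 UMIs in 725 barcodes (0.788 CPM) and 90 UMIs in 4270 barcodes (1.88 CPM). MatrixFBs of the same libraries stood at 11.1 CPM (9 UMIs) and 11.5 CPM (114 UMIs). T cells gave 1 UMI in 70 barcodes of the repetitive PBS library (2.70 CPM, 0.0684 to 15.0), an interval that includes both the LipoFB and the MatrixFB level. T cells of the bleomycin library gave 0 UMIs, which allows up to 12.0 CPM, a limit above the LipoFB level of 7.85 CPM. In MatrixFBs the Plaur ratios of bleomycin over PBS were 1.38 (0.621 to 3.38) and 1.24 (0.984 to 1.56), and both intervals include no difference. Cycling FBs of the repetitive bleomycin library stood above its MyoFBs, at 155 CPM of Plaur (126 to 189), but from 24 barcodes, of which 8 had a UMI, and 37 of the 96 UMIs came from 1 of them.

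**Figure D3:**
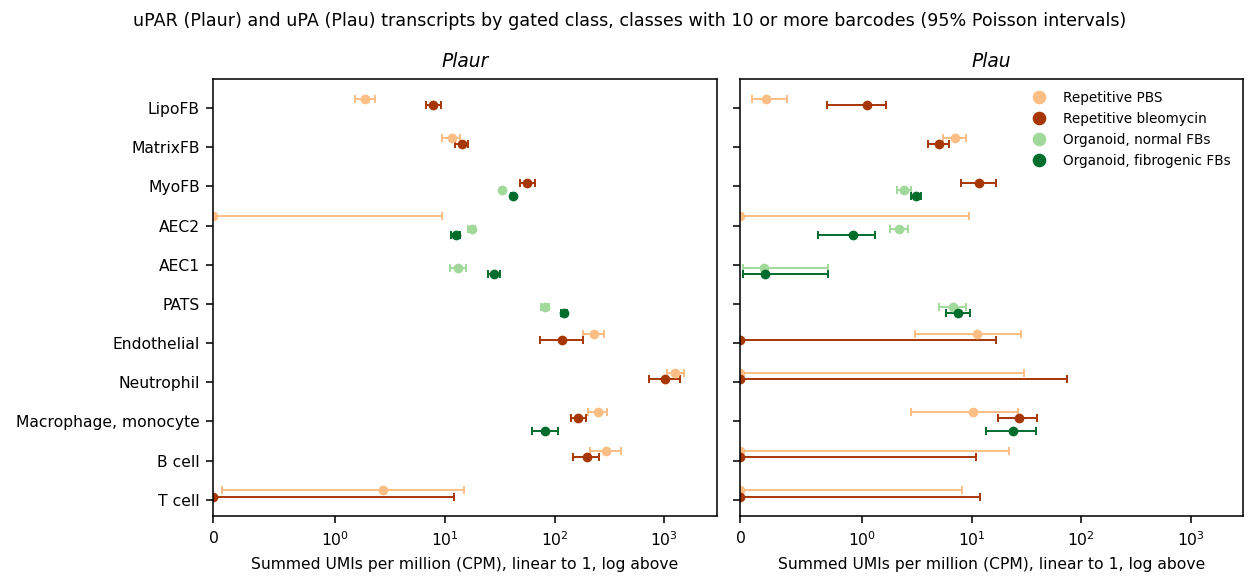
Plaur (left) and Plau (right) in selected gated classes of the repetitive and organoid libraries with at least 10 barcodes, in CPM on an axis that is linear up to 1 and logarithmic above it, with lines for the exact 95% Poisson interval or, at 0 UMIs, up to the 3-count limit. Cycling FBs, whose Plaur level after repetitive bleomycin is given in the text, and Sfrp1 FBs are not shown. For Plaur, neutrophils (1262 and 1020 CPM), B cells, macrophages and endothelial cells (118 to 294 CPM) of the repetitive lungs lie above the 3 FB classes shown, and PATS cells (81.5 and 121 CPM) lie above AEC1s and AEC2s.

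FBs held a minority of the Plaur transcripts in the repetitive PBS library. There neutrophils stood at 1262 CPM (25 of 29 barcodes with a UMI), B cells at 294 CPM, macrophages and monocytes at 248 CPM and endothelial cells at 227 CPM. In the bleomycin library the values were 1020, 196, 165 and 118 CPM. Leukocytes, 193 and 210 barcodes in all, held 31.5% of the PBS library's Plaur UMIs and 17.8% of the bleomycin library's, while FBs held 26.7% and 66.1%. The FB share of the receptor's transcripts was therefore higher after bleomycin, in a sort for GFP+ cells that sets how many leukocytes remain.

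The members were also read against all genes. A gene was called when its log2 ratio of CPM + 1 reached 1 in either direction and it had at least 50 UMIs over both groups. In single-dose FBs 3 of the 4 members with enough UMIs were called higher (Serpine2 1.56, Plat 1.28, Plaur 2.76) and none lower, where 7.42% of 10702 genes were called higher and 3.59% lower. In repetitive FBs 2 of 5 were called higher (Serpine2 1.27, Plaur 1.91), where 6.65% of 15184 genes were higher and 1.86% lower, and the log2 ratios of Serpinf1, Plat and Plau were 0.69, 0.48 and 0.87. The median log2 ratio was 1.42 over the 4 members and 0.07 over all genes in the single-dose FBs, and 0.87 and 0.10 in the repetitive FBs. In single-dose FBs Plaur reached the minimum of UMIs only through its bleomycin count, so its call and its part in the median are not independent of that filter. With at least 500 UMIs per gene, 2 of 3 members were called there, where 9.69% of all genes were.

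Within LipoFBs, 1 of 3 members was called higher in the single-dose experiment (Plat, background 4.19% higher and 2.89% lower), and 3 of 4 in the repetitive experiment (Serpine2, Serpinf1 and Plaur, background 5.04% and 1.7%). Of these, Serpinf1 was called over a PBS level read as background, and T cells set no limit below either LipoFB level of Plaur. Within MatrixFBs, Serpine2 was the 1 member called higher in each, of 3 (background 3.95% and 2.86%) and of 5 (background 2.94% and 1.58%). MyoFBs exceeded LipoFBs of the same bleomycin library 2-fold in Serpine2 and Plaur after a single dose, 2 of 4 members, where 4.67% of genes were that much higher and 8.62% lower. Plaur reached the minimum of UMIs there only through its MyoFB count. After repetitive doses 4 of 5 members did so (Serpine2, Serpinf1, Plau and Plaur), where 5.9% of genes were that much higher and 9.93% lower. Of these, Plau met the minimum of UMIs only through its MyoFB count, so its call is not independent of that filter. Sfrp1 FBs exceeded LipoFBs 2-fold in Plaur alone of 4 members after a single dose (background 2.13% higher and 1.86% lower) and in Plau and Plaur of 5 after repetitive doses (background 2.58% and 1.91%). Plaur after a single dose and Plau after repetitive doses met the minimum of UMIs only through their Sfrp1 FB counts. Their calls are therefore not independent of that filter. Many LipoFBs of these libraries also held the Sfrp1 set at a high level, as given above.

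MatrixFBs and LipoFBs of 1 library differed 2-fold in several members. In the single-dose PBS library Serpinf1 and Plat were that much higher in MatrixFBs and Serpine2 that much lower, of 3 members with enough UMIs (background 5.2% higher and 7.92% lower), and after bleomycin Serpinf1 was higher and Serpine2 lower (background 5.59% and 7.88%). In the repetitive PBS library Serpinf1, Plau and Plaur were higher and Serpine2 lower, of 5 (background 7.09% and 4.99%), and after bleomycin Serpinf1 and Plau were higher and Serpine2 lower (background 6.54% and 4.82%). In both repetitive libraries Plau reached the minimum of UMIs only through its MatrixFB count, so its calls are not independent of that filter. Serpine2 was thus the member held more by LipoFBs, and Serpinf1 by MatrixFBs, in all 4 lung libraries.

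**Figure D4:**
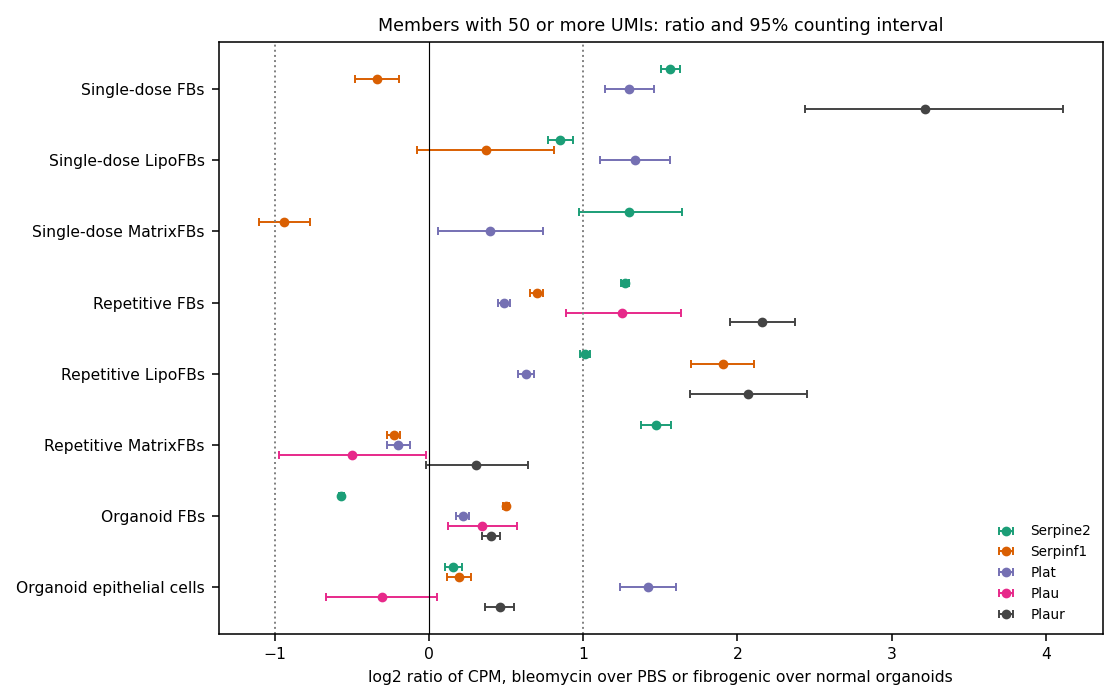
Log2 ratio of CPM, without a pseudocount, for each member with at least 50 UMIs in each comparison of conditions, bleomycin over PBS or fibrogenic over normal, with lines for the 95% counting interval and dotted lines at -1 and 1. Serpine2 and Plaur lie above 1 in both lung FB comparisons, and Serpine2 is the 1 member below 0 in organoid FBs.

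In organoids the direction for Serpine2 was the other way. Organoid FBs stood at 568 CPM with normal FBs (564 to 573, 62926 UMIs) and at 383 CPM with fibrogenic FBs (380 to 386, 58190 UMIs), a ratio of 0.674 (0.666 to 0.682). Serpinf1 stood at 365 and 516 CPM (1.41-fold, 1.40 to 1.43), Plat at 63.4 and 73.8 CPM (1.16-fold, 1.13 to 1.20), Plau at 2.32 and 2.95 CPM (1.27-fold, 1.09 to 1.49) and Plaur at 30.8 and 40.7 CPM (1.32-fold, 1.27 to 1.38). Fibrogenic FBs were thus lower in Serpine2 and higher in the other 4 members, and 0 of 5 were past 2-fold, where 0.263% of 15956 genes were that much higher and 0.796% lower. With 1 library per condition no tool can test these differences and no unadjusted p exists.

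Serpine2 was also lower in fibrogenic organoids within the 3 largest FB classes. It stood at 605 and 453 CPM in MyoFBs, at 375 and 175 CPM in cycling FBs and at 573 and 242 CPM in FBs that met no class gate, normal before fibrogenic. The few Sfrp1 FBs (29 and 10 barcodes) stood at 491 and 278 CPM, but the 3 MatrixFBs of each organoid went the other way, at 288 and 771 CPM. The ratios in the 3 largest were 0.748 (0.739 to 0.758), 0.468 (0.449 to 0.488) and 0.423 (0.409 to 0.437), and in cycling FBs and those that met no class gate Serpine2 was past 2-fold lower, where 1.89% and 3.26% of genes were, against 0.527% in MyoFBs, where no member was. The thinned share of FBs with a Serpine2 UMI was 45.9% and 27.4%. Class shares differed little between the organoids, with MyoFBs at 63.0% and 61.5% of FBs. The MyoFB marker set was lower within the same 3 classes of fibrogenic organoids, at medians per 10000 UMIs of 197 and 146 in MyoFBs, 164 and 109 in cycling FBs and 73.2 and 47.4 in FBs that met no class gate, and its part in the Serpine2 difference was not tested. FBs that met no class gate were sampled at median depths of 33393 and 5784 UMIs.

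Serpinf1 was higher in fibrogenic organoid FBs of these 3 classes, at 407 and 529 CPM in MyoFBs, 319 and 475 CPM in cycling FBs and 235 and 483 CPM in FBs that met no class gate. The last ratio was 2.06 (1.99 to 2.13), where 1.93% of genes were 2-fold higher, against 0.814% in cycling FBs and 0.217% in MyoFBs. The thinned share of FBs with a Serpinf1 UMI was 38.5% and 51.6%. Hardly any organoid FB met the MatrixFB gate, 3 in each library. In culture Serpinf1 was thus found outside the gate of the class that held most of it in lungs. Whether these FBs came from MatrixFBs was not tested.

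Organoid epithelial cells gave low levels of the secreted members. Serpine2 stood at 70.9 and 79.1 CPM, Serpinf1 at 35.8 and 40.9 CPM and Plat at 4.65 and 12.4 CPM in normal and fibrogenic organoids. Relative to Col1a1, an FB transcript, the epithelial barcodes held 380 and 248 Serpine2 UMIs per 100 Col1a1 UMIs, where FBs of the same libraries held 19.2 and 12.1. For Serpinf1 the values were 192 and 128 in epithelial cells and 12.4 and 16.3 in FBs, and for Plat 24.9 and 39.0 against 2.14 and 2.33. All 3 genes were higher relative to Col1a1 in the pooled epithelial barcodes than in FBs of the same library. PATS cells were the exception for Serpinf1, with 4.13 and 15.1 UMIs per 100 Col1a1 UMIs, below the FB values. Col1a1 itself stood at 18.7 CPM in normal and 31.9 CPM in fibrogenic epithelial barcodes, and its part in the differences between these organoids was not tested. Because Col1a1 was also an FB gate marker, gating itself raises the ratios to Col1a1 in epithelial barcodes over those in FBs, by an amount not measured.

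Of the 5 members Plat was past 2-fold in organoid epithelial cells (2.67-fold, 2.36 to 3.04), 1 of 5, where 0.251% of 14738 genes were 2-fold higher and 0.122% lower. AEC2s stood at 5.57 and 17.2 CPM of Plat (3.09-fold, 2.67 to 3.57), from 277 and 592 UMIs, beside 13.8 and 29.7 CPM of Col1a1. By the ratio of CPM + 1, Plat was the 1 of 5 members past 2-fold in AEC2s (background 0.373% higher and 0.104% lower). Type 1 cells (AEC1s) stood at 0.695 and 1.91 CPM (7 and 19 UMIs) and cells in the pre-alveolar transitional state (PATS) at 4.42 and 6.13 CPM. The thinned share of AEC2s with a Plat UMI was 1.08% and 2.86%, and unthinned 15.2% and 27.6%, at median depths of 42679 and 40217.5 UMIs. The AEC2 value was the highest of these 3 classes in fibrogenic organoids. In normal organoids the PATS value rested on 32 UMIs and lay close to that of AEC2s, so no order is read between them.

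Plaur differed between the epithelial classes of the organoids. PATS cells stood at 81.5 CPM (75.1 to 88.4) and 121 CPM (114 to 129), a ratio of 1.49 (1.34 to 1.65). AEC1s stood at 13.2 and 28.0 CPM, a ratio of 2.12 (1.72 to 2.62, background 0.858% higher and 0.53% lower), though 31 of the 279 UMIs in fibrogenic AEC1s came from 1 barcode. AEC1s were gated before PATS cells, so barcodes with both marker sets count as AEC1s, and their part in this ratio was not tested. AEC2s stood at 17.5 and 12.5 CPM, a ratio of 0.715 (0.636 to 0.803). PATS cells were therefore the highest in both organoids, and fibrogenic values were higher than normal ones in AEC1s and lower in AEC2s. The thinned share of PATS cells with a Plaur UMI was 10.2% and 19.5%, against 2.62% and 1.60% of AEC2s.

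Plau was likewise highest in PATS cells of the organoid epithelium, which stood at 6.76 CPM (49 UMIs) and 7.54 CPM (64 UMIs), with AEC2s at 2.19 CPM (109 UMIs) and 0.929 CPM (32 UMIs) and AEC1s at 0.199 and 0.201 CPM (2 UMIs each). In AEC2s the ratio was 0.424 (0.277 to 0.634), and in PATS cells 1.12 (0.757 to 1.65), an interval that includes no difference. The log2 ratio of CPM + 1 for Plau in AEC2s was -0.73, so it was not called there. Serpinf1 was near zero in PATS cells, at 2.21 and 6.24 CPM (16 and 53 UMIs), next to 44.6 and 54.2 CPM in AEC2s. Its ratio of 2.83 in PATS cells (1.59 to 5.30) was the 1 of 5 past 2-fold there (background 0.252% higher and 0.355% lower). It met the minimum of UMIs there only through its fibrogenic count. These Serpinf1 counts, at 4.13 and 15.1 per 100 Col1a1 UMIs against 12.4 and 16.3 in FBs, were no more than free FB RNA could bring, so they are read as background. PATS cells made up 8.61% and 13.2% of epithelial barcodes and AEC2s 60.8% and 53.8%.

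Other genes of the plasminogen and thrombin system lay mostly within 2-fold. A list of 20 further genes held activator inhibitors, plasmin inhibitors, plasminogen itself and its receptors, clearance and matrix receptors, and thrombin-pathway genes. In single-dose FBs 12 had enough UMIs, 6 higher and 6 lower after bleomycin, with 1 past 2-fold each way, near the 7.42% and 3.59% of all genes, and a median log2 ratio of -0.06, where that of all genes with enough UMIs was 0.07. The highest was Mrc2, which encodes the collagen receptor uPARAP, at 94.9 and 210 CPM (log2 ratio 1.14), and the lowest was Thbd, which encodes thrombomodulin, at 328 and 112 CPM (-1.54).

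In repetitive FBs 15 of the 20 had enough UMIs, 10 higher and 5 lower, with a median log2 ratio of 0.15, against 0.10 over all genes with enough UMIs. Thbd was again the lowest, at 265 and 139 CPM (-0.93). The only one past 2-fold, where 6.65% of all genes were higher and 1.86% lower, was Serpinb2, which encodes plasminogen activator inhibitor 2, with 0 UMIs after PBS and 146 after bleomycin, but 140 of these came from 1 cycling barcode and the FBs without cycling barcodes held 6. Serpinb2 was similarly uneven in single-dose bleomycin FBs, where all 39 UMIs were in MyoFBs and 29 in 1 barcode.

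**Figure D5:**
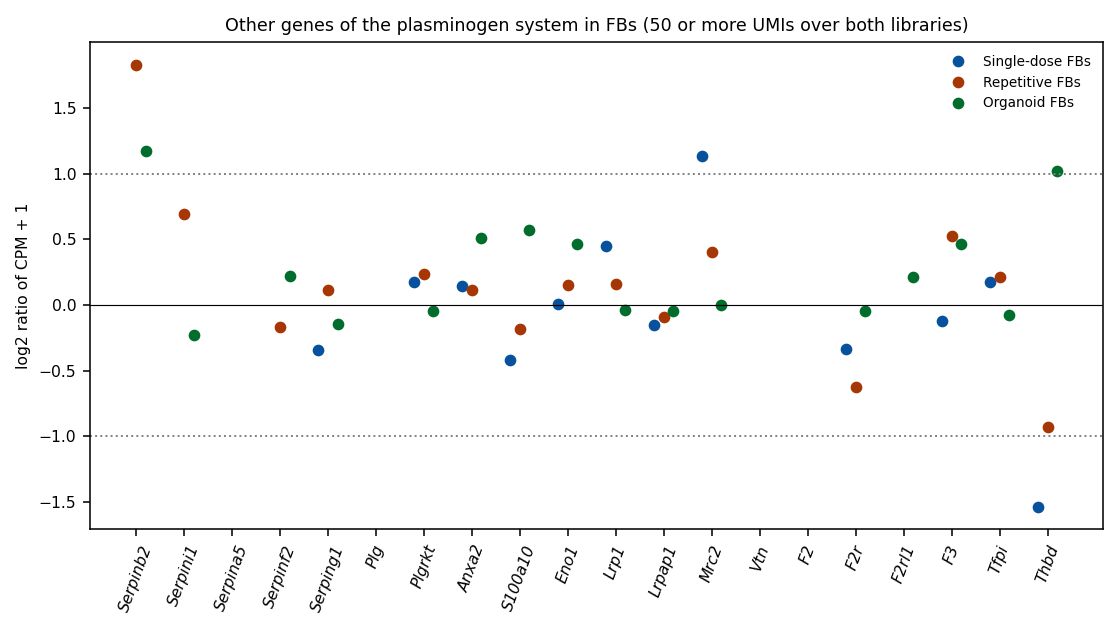
Log2 ratio of CPM + 1 for listed genes of the plasminogen and thrombin system with at least 50 UMIs over both libraries, in single-dose FBs, repetitive FBs and organoid FBs (1 point each). Dotted lines mark -1 and 1, between which most points lie, and Thbd is lower in both lung comparisons (-1.54 and -0.93) and higher in organoid FBs (1.02).

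In organoid FBs 16 of the 20 had enough UMIs, 8 higher and 8 lower, with a median log2 ratio of 0.10, against -0.01 over all genes with enough UMIs. Serpinb2 and Thbd, 2 of 16, were past 2-fold higher and 0 lower, where 0.263% of all genes were higher and 0.796% lower. Serpinb2 was the highest, at 5.04 and 12.6 CPM (log2 ratio 1.17), with 250 of the 558 UMIs in normal FBs and 225 of the 1917 in fibrogenic FBs coming from 1 barcode, and Serpini1, which encodes neuroserpin, was the lowest, at 8.43 and 7.02 CPM (-0.23). Thbd stood at 32.0 and 65.8 CPM (1.02). In organoid epithelial cells 15 had enough UMIs, 12 higher and 3 lower, with a median log2 ratio of 0.48, against 0.04 over all genes with enough UMIs. The FB transcript Col1a1 was higher in the same barcodes (18.7 and 31.9 CPM), and its part in this shift was not tested. The highest was Thbd, with 32 and 109 UMIs (1.01), and the lowest was Eno1, which encodes the glycolytic enzyme enolase 1, at 371 and 317 CPM (-0.22). Eno1 has near-identical copies in the mouse genome, so its count is uncertain.

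Likeness of pattern was measured over the 41 library-by-class groups with at least 30 barcodes, as Pearson's r of log2(CPM + 1) among 10494 genes. These groups share libraries, depth and cell type, so r is a description with no p. Serpine2 was most like Nrep (0.93), Nrtn (0.90) and C1qtnf6 (0.89), and Plat was most like Fam20a (0.94), Aebp1 (0.93) and Tshz2 (0.93). Serpinf1 was most like Cyp1b1, Angpt4 and Dio2 (each 0.87). The receptor and urokinase had looser partners, with Plaur most like Nuak2 (0.77), Mtpn (0.75) and Tstd3 (0.72), and Plau most like Zmiz1 (0.74), Cyfip1 (0.74) and Pdlim5 (0.73). Among the members, Serpine2 and Plat had an r of 0.83 and Plau and Plaur of 0.53, whereas Serpine2 and Plaur had an r of -0.24.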

How the data were processed

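The authors deposited unnormalized UMI counts as 6 tables of genes by barcodes, 1 per droplet library, made with Cell Ranger 3.0.1 on mm10 per the labels, which also name Seurat 3. The study's methods give the Chromium 3′ v2 kit for the single-dose libraries. For the others the kit is not given in the sources used here, so levels are compared within an experiment. Members and lists were chosen with earlier results of these data known.

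Barcodes with fewer than 2000 UMIs or over 25% mitochondrial UMIs were left out (5.31% to 43.7% fell under the UMI minimum). Classes were gated on marker genes. An FB took the first class it met of cycling, MyoFB, MatrixFB or LipoFB (by the higher marker level), and Sfrp1. Epithelial barcodes took the first of cycling, AEC1, AEC2 and PATS, and smooth muscle was gated before FBs. FBs needed at least 2 FB markers and 10 marker UMIs per 10000, and LipoFBs, MatrixFBs and MyoFBs at least 4 of their own markers and 50 per 10000. Sfrp1 FBs needed 3 markers at 50, cycling cells 3 at 5, and AEC2s, AEC1s and PATS cells 4, 4 and 5 at 300, 50 and 40 per 10000, with thresholds set after marker detection and the members' totals had been seen. Barcodes left without a class were set aside as mixed (2.44% to 9.17%) if at least 2 cell types each gave 2 or more markers at 5 per 10000. No doublet caller was run. Fn1 was left out of the FB gate, and Sftpc and Sftpb out of the epithelial gate. UMIs were summed per library and class and divided by their total (CPM). Intervals are exact 95% Poisson intervals for levels and exact conditional binomial intervals for ratios, and a count of 0 allows 3 counts. A gene was counted as called at a log2 ratio of CPM + 1 of at least 1 in size, with at least 50 UMIs over both groups. The text names the 5 members, the highest and lowest listed gene of each condition comparison and, for each member, the 3 genes of highest likeness among those with at least 500 UMIs and 20 CPM in 1 group. One gene of the fixed list is not reported here. Python 3.11.15, numpy 2.4.6 and scipy 1.17.1 were used, and the code was tested on simulated data. Alternatives covered the UMI minimum, pseudocount, gate, scaling, deepest barcodes and FB classes.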

Additional observations from a re-analysis of the deposited data

Results flagged for a closer look

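The log2 ratio of Serpine2 in FBs was 1.56 in the single-dose lungs and 1.27 in the repetitive lungs (bleomycin over PBS), and -0.57 in the organoids (fibrogenic over normal). That of Serpinf1 was -0.34 in the single-dose lungs, 0.69 in the repetitive lungs and 0.50 in the organoids, but with each barcode weighted equally it was -0.05 in the single-dose lungs, near no difference. Both are given because the single library pair of one experiment went the opposite way from that of another. The difference between experiments was not tested, since each condition had 1 library, and the experiments also differed in dosing, culture and depth.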

How the results depend on the processing

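Of 186 member ratios recomputed under alternatives, 184 kept their sign. The exceptions were both for Serpinf1, at 0.88 in single-dose FBs without MatrixFBs (-0.34 with them) and at -0.04 in repetitive FBs with class shares held (0.69 as sampled), under alternatives chosen after seeing the data. The count of 184 includes ratios whose sign could not change. A minimum of 500 UMIs per gene leaves each ratio as it was, and a larger pseudocount cannot reverse its sign. With each barcode weighted equally Serpinf1 in single-dose FBs kept its sign but stood at -0.05. In repetitive FBs the members past 2-fold went from 2 to 1 with a pseudocount of 10 CPM, where Plaur gave 0.98, and to 4 without MatrixFBs, while the share of all genes past 2-fold went from 8.52% to 2.71% and 10.3%. In organoid epithelial cells the count went from 1 to 0 (0.373% and 0.0882% of all genes) with a pseudocount of 10 CPM, where Plat gave 0.61, since a larger pseudocount shrinks ratios of low genes. The single-dose count was 3 of 4 (11.0% of all genes), 2 of 3 with at least 500 UMIs per gene (9.69%) and 2 of 4 with class shares held (7.55%), and the organoid FB count was 0 under all alternatives run. No paired analysis was possible because each condition had 1 library and no result came from a test. Without replicate libraries, differences between mice, sorts and runs cannot be told apart from those between conditions. Plau in single-dose FBs rests on 0 and 5 UMIs, so no ratio is given for it.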

Other observations

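Barcodes of the organoids that met the smooth muscle gate, 24 and 51 in number, stood at 15.4 CPM (25 UMIs, 11 of them in 1 barcode) and 15.1 CPM (50 UMIs, 12 in 1 barcode) of Plau, above the 2.32 and 2.95 CPM of organoid FBs. This gate came before the FB gate. Col1a1 stood at 3873 CPM in the fibrogenic ones, against 3171 CPM in FBs. Per 100 Col1a1 UMIs they held 1.44 Serpine2 UMIs, against 12.1 in FBs. Whether these barcodes are a cell type apart from FBs was not tested. The same barcodes stood at 418 and 671 CPM of Serpinf1 and at 131 and 56.0 CPM of Serpine2, in the same directions as the FB-gated barcodes.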
